A study of Rattus norvegicus with 21 samples.

Results

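Interferon-induced genes were followed in the anterior pituitary of male ACI, COP (Copenhagen) and BN (Brown Norway) rats, 3 inbred strains, with and without diethylstilbestrol (DES), a synthetic estrogen. A total of 45 genes had been chosen by name, with earlier results of these data known. Their shares beside those of all genes are therefore descriptions. Of the 45 genes, 42 had at least 1 probe set under their symbol in the platform annotation, among 14217 genes with a symbol on the array. Together they had 60 probe sets, with 31 genes on a single probe set and 11 genes on several, up to 6 for Ifnar1. All 42 genes and all 60 probe sets passed the filter on low signals, which kept a probe set that exceeded the 40th percentile on 3 or more arrays. Ifi47 and Xaf1 were not analysed here. The gene ID of Ddx58 was listed under the symbol Rig1, so its values are given beside the others and are in none of the counts.

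Rats received an implant of 5 mg DES or an empty implant (control) when 9 weeks old, kept it for 12 weeks and were 21 weeks old at death. All had received BrdU, a label of dividing cells, at 50 mg/kg 4 hours before death. Each strain had 4 DES and 3 control arrays, which made 21 arrays in 6 groups. By the series' design text all arrays are biological replicates, while the sample notes count 1 replicate fewer per group. Each array was read here as 1 rat, and the p-values measure the spread between these arrays. ACI and BN rats came from one supplier and COP rats from another, so strain and supplier cannot be told apart where COP is compared. RNA came from the whole gland, and a smaller number of cells of a type cannot be told apart from less RNA per cell.

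Interferons are cytokines, and those of type I are released by cells that detect viral nucleic acid. Type I interferons bind a receptor that contains IFNAR1 and switch on genes through a complex that includes STAT2 and IRF9 and binds a DNA element called the interferon-stimulated response element (ISRE). Interferon gamma binds a receptor that contains IFNGR1 and acts at many genes through IRF1. The induced genes encode sensors of viral RNA, proteins that block viral entry or replication, large GTPases, the ubiquitin-like modifier ISG15 with its enzymes, and parts of the machinery that produces peptides for antigen presentation. Macrophages are among the cells that express many of them.

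The promoters of the members were read for the letters of the ISRE, because the element is shared by members that moved in opposite directions. Windows of 300 bases, 250 before the start of the gene and 50 after it, were taken from RefSeq on the GRCr8 build and were present for 35 members. Both strands were searched for GAAA, any 2 bases and a further GAAA, which reads as TTTC, any 2 bases and TTTC on the other strand, and for TTCNNNGAA, the letters of a STAT site, which reads the same on both. The patterns can overlap. The first was found in 21 of 35 member windows (60%) and in 1312 of 33469 windows of all genes (3.92%). The second was found in 11 of 35 (31.4%) and in 2970 of the 33469 windows (8.87%). A match describes letters and not a bound site. The lines that follow give the bases around a match of the ISRE letters for 3 genes that rose in ACI (Irf7, Gbp2 and Ifit3). The other 5 genes shown (Igtp, Psme2, Ifi44, Sp110 and Rsad2) fell in all 3 strains. Each match is the nearest one that lies wholly before the start, and Ifi44 had another match that does not. The bases run in 5′ to 3′ order on the strand of the gene, with the ISRE letters in capitals. They lie at chr1:205800063-205800112, chr2:234005676-234005725, chr1:241527262-241527311, chr10:42874924-42874973, chr15:33052775-33052824, chr2:243303841-243303886, chr9:93670688-93670737 and chr6:48788238-48788287.
Irf7: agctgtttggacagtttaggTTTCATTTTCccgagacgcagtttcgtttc
Gbp2: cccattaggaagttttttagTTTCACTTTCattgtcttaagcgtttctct
Ifit3: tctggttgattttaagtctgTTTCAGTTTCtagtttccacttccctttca
Igtp: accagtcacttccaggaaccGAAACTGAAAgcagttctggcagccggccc
Psme2: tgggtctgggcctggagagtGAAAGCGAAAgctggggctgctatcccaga
Ifi44: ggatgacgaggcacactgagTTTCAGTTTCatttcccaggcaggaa
Sp110: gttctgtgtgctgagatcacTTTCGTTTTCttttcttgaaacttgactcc
Rsad2: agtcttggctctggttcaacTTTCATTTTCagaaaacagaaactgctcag
Irf7, Gbp2, Ifit3, Ifi44, Sp110 and Rsad2 carry the element in its TTTC reading, and Igtp and Psme2 carry it in its GAAA reading. The element ended 22 bases before the start in Gbp2, 35 in Ifit3, 60 in Irf7, 44 in Psme2 and 94 in Igtp. The ISRE letters were absent from the windows of Mx1, Irf1, Irf8, Stat2, Psme1, Parp9 and Trim25, of which Irf1 and Irf8 held the STAT letters, and Mx2, Usp18, Isg15 and Ifit2 had no window in the table used. Here and below, a gene rose or fell where it was called at an adjusted p under 0.05. Of the 20 measured genes with the ISRE letters, 6 rose and 10 fell with DES in ACI, and 2 rose and 13 fell in BN. Of the 13 measured genes with a window but no ISRE letters, 3 rose and 4 fell in ACI, and 1 rose and 7 fell in BN. Of all genes tested, 23.2% rose and 32.5% fell in ACI, and 16.9% rose and 22.6% fell in BN. These counts are descriptions, and the windows with and without the letters were not compared by a test.

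Signals were linear intensities that the authors had scaled to a common trimmed mean, and the median signal lay between 118.8 and 151.4 on the 21 arrays. The number of arrays limits the precision. The 40th percentile ran from 67.0 to 90.6, and signals averaging under 67.0 in a group were treated as near the floor, where the size of a change is uncertain. Over all probe sets DES arrays had a median log2 change of -0.131 in ACI rats, -0.089 in COP rats and -0.064 in BN rats, and changes are to be read against these shifts. With median centring these shifts were 0.084, 0.017 and 0.019, and the calls of members kept their signs in all 3 strains. BN DES arrays 3 and 4 stood apart from BN DES arrays 1 and 2. Both were above both of the others in 23 of 42 members (54.8%), against 31.4% of all genes tested, and at least 2-fold differences between the pairs were found in 10 members (23.8%), against 6.2% of all genes. In the DES groups of ACI and COP such differences were found in 1 and 0 members, against 1.57% and 2.55% of all genes. In ACI DES rats arrays 3 and 4 were both below arrays 1 and 2 in 16 members (38.1%, against 22.3% of all genes). They were both above them in 4 (9.52%, against 20.7%). In COP DES rats they were below in 10 members (23.8%, against 23.3%) and above in 8 (19.0%, against 23.0%). The same array numbers were apart in every DES group in the summed signal of 3 red blood cell genes. It was 7731, 10132, 20382 and 19438 on ACI DES arrays 1 to 4, against 14050 to 24267 on ACI control arrays, and 7318, 11268, 17963 and 21916 on COP DES arrays, against 15496 to 20711 on COP control arrays. On BN DES arrays it was 8726, 7208, 26036 and 29887, against 7780 to 13671 on BN control arrays. Its part in the results was not tested. Counts that include BN DES rats are also given for arrays 1 and 2 alone and for arrays 3 and 4 alone, with the members whose call was lost.

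Markers of macrophages and leukocytes, of endothelium and of the neural lobe moved with DES as well. The summed signal of 16 such genes, among them Cd68, Ptprc, Csf1r and the complement genes C1qa, C1qb and C1qc, was 20518, 22384, 21157 and 23794 on ACI DES arrays, against 5679 to 8503 on ACI control arrays. It was 18633 to 25770 in COP DES and 8054 to 8799 in COP control rats. On BN DES arrays it was 10856, 10800, 17964 and 20534, against 7859 to 10222 on BN control arrays, so that arrays 3 and 4 were again the higher ones. Of the 16 genes, 14 rose and 0 fell with DES in ACI, 14 rose and 1 (Lyz2) fell in COP, and 7 rose and 0 fell in BN, which is 87.5%, 93.8% and 43.8% called, against 55.6%, 49.8% and 39.5% of all genes. None of the 16 was at 0, and Cd68, a lysosomal protein of macrophages, averaged 545 ± 91.1 in ACI DES (SD, n = 4) and 119 ± 4.77 in ACI control rats (SD, n = 3). The gland itself was checked by 9 genes of anterior pituitary cells, all of which passed the filter. Their summed signal was 104148 to 117598 in ACI DES and 123567 to 193746 in ACI control rats. It was 119193 to 152815 in COP DES and 147571 to 154927 in COP control rats. On BN DES arrays it was 137926, 131576, 238034 and 187652, against 130857 to 140116 on BN control arrays, with arrays 3 and 4 the higher ones. Of 6 tested endothelial genes, 0 rose and 4 fell in ACI, 0 rose and 1 fell in COP, and 1 rose and 0 fell in BN. The summed signal of the 7 endothelial genes on the array was 1950 to 2144 in ACI DES and 2912 to 4120 in ACI control rats, 2362 to 2905 in COP DES and 2508 to 3167 in COP control rats, and 3402 to 4539 in BN DES and 2295 to 3126 in BN control rats. Of 4 tested genes of neural lobe and nerve, 2 fell in ACI, 3 in COP and 1 in BN. The sum of the 5 such genes on the array was 7609 to 9085 in ACI DES and 10171 to 13709 in ACI control rats, 7681 to 10247 in COP DES and 10734 to 12538 in COP control rats, and 9791 to 11113 in BN DES and 9445 to 10513 in BN control rats. Only 2 of 8 T and B cell genes on the array passed the filter. The part of these cells in the results that follow was not tested.

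With DES, interferon-induced genes moved in both directions, with more falls than rises in COP and BN and a split in ACI that varied with the scaling. In ACI, 11 of 42 members rose and 18 fell, which is 69.0% of members. At the same threshold, an adjusted p under 0.05, 55.6% of all genes tested were called, with 23.2% higher and 32.5% lower. With median centring 14 members rose and 15 fell in ACI, and 26 of the 29 calls were kept. In COP, 9 rose and 18 fell (64.3%), against 49.8% of all genes (21.6% higher and 28.1% lower). In BN, 4 rose and 23 fell (64.3%), against 39.5% of all genes (16.9% higher and 22.6% lower). Members had a median log2 change of -0.36 in ACI rats, -0.32 in COP rats and -0.71 in BN rats, and all genes had -0.131, -0.084 and -0.063. The 4 DES arrays did not overlap the 3 control arrays for 31 members in ACI (59.8% of all genes), 28 in COP (55.2%) and 27 in BN (42.2%). In BN the counts were 2 rises and 26 falls with DES arrays 1 and 2 alone, when 31.7% of all genes were called, and 5 rises and 19 falls with DES arrays 3 and 4 alone, when 46.9% were called. Of the 27 calls in BN, arrays 1 and 2 alone lost those of Adar, Ifih1, Ifitm2 and Usp18, and arrays 3 and 4 alone lost those of Bst2, Dhx58, Mx1 and Parp14.

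**Figure D1:**
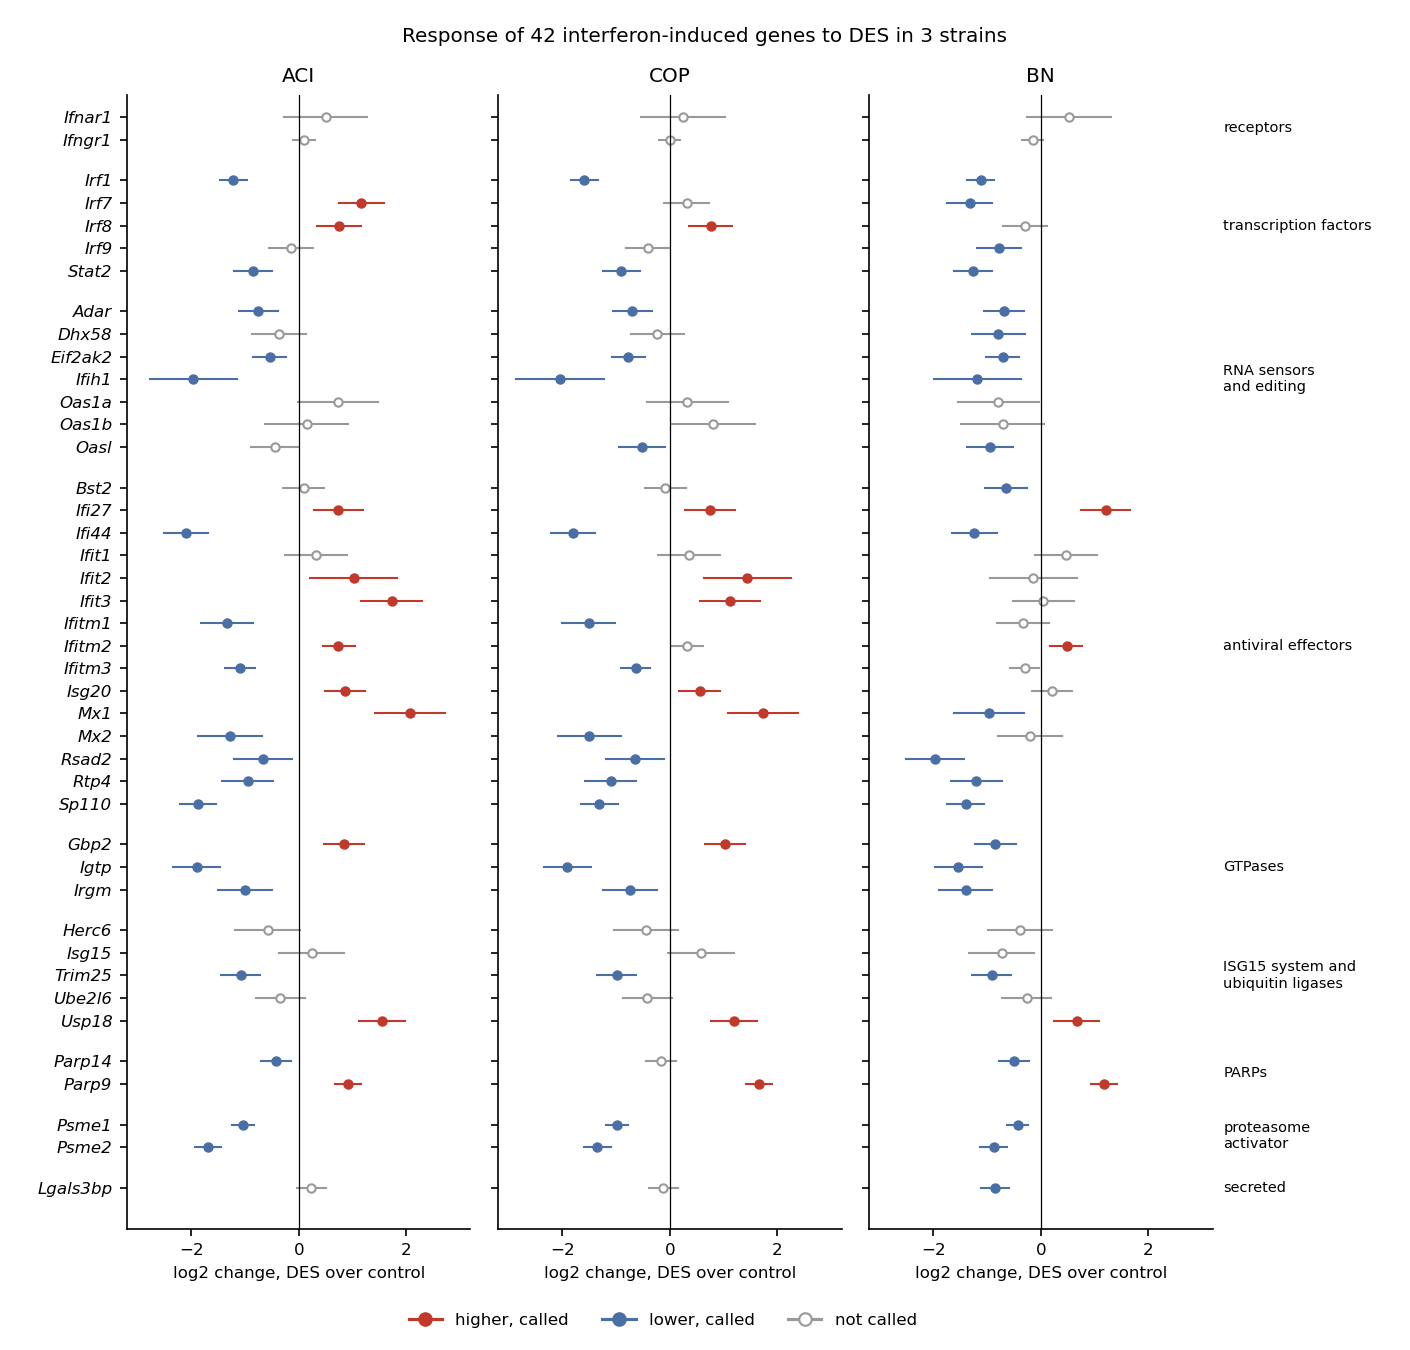
Log2 change with DES (x axis, DES over control, with 95% intervals) of the 42 members, 1 probe set per gene, grouped by role, in ACI, COP and BN. Red points are called higher, blue points called lower and open points not called, and the 14 genes that fell in all 3 strains, from Irf1 to Psme2, stand left of 0 in every panel.

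Among the members, 14 fell in all 3 strains and 3 rose in all 3. Adar, Eif2ak2, Ifi44, Ifih1, Igtp, Irf1, Irgm, Psme1, Psme2, Rsad2, Rtp4, Sp110, Stat2 and Trim25 fell in every strain (33.3%, against 15.9% of all genes). Ifi27, Parp9 and Usp18 rose in every strain (7.14%, against 11.7% of all genes). Gbp2, Irf7 and Mx1 rose in ACI and fell in BN (7.14%, against 0.4% of all genes), and of these Gbp2 and Mx1 also rose in COP (4.76%, against 0.179%). No member fell in ACI and rose in BN, against 0.375% of all genes. Ifit2, Ifit3, Irf8 and Isg20 rose in ACI and COP and were not called in BN (9.52%, against 6.4%), and Ifitm1, Ifitm3 and Mx2 fell in ACI and COP and were not called in BN (7.14%, against 8.46%). For Mx2 this is the pattern of its brighter probe set, which was near the floor in BN. Its dimmer probe set rose in ACI and COP and fell in BN. Bst2, Dhx58, Irf9 and Lgals3bp were called only as falls in BN (9.52%, against 3.43%). Herc6, Ifit1, Ifnar1, Ifngr1, Isg15, Oas1a, Oas1b and Ube2l6 were called in no strain (19.0%, against 31.3%).

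Receptors came first in the order of the pathway, and neither was called. Ifngr1, a chain of the interferon gamma receptor, had signals of 1610.2, 1682, 1498 and 1520.2 in ACI DES and 1476, 1661 and 1291 in ACI control rats, and its log2 change with DES lay between -0.15 in BN and 0.10 in ACI. The groups overlapped in ACI and COP. Ifnar1, a chain of the type I receptor, had 6 probe sets with signals from 12.3 to 358. The brightest of them changed by 0.50 ± 0.38 in ACI (adjusted p = 0.29), and another, the only one called, rose in ACI (log2 0.94 ± 0.34, adjusted p = 0.0261). That call includes an ACI control signal of 18.3 beside 90.1 and 98.5.

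Among the transcription factors, Irf1 and Stat2 fell in all 3 strains while Irf7 and Irf8 differed between strains. Irf1, induced mainly by interferon gamma, lies at chr10:38417935-38424946 (GRCr8). Its signals were 506, 392.4, 396 and 449.7 in ACI DES and 990.2, 1050.1 and 1050.5 in ACI control rats. In BN they were 838, 880.0, 656 and 918 with DES and 1739.6, 1967 and 1697 without, and no DES array reached a control array in any strain. The change was -1.22 ± 0.12 in ACI (adjusted p = 2.07e-08), -1.59 ± 0.12 in COP (adjusted p = 5.49e-10) and -1.12 ± 0.12 in BN (adjusted p = 2.16e-07), on the log2 scale with the SE. Stat2, which carries the signal of type I interferon to DNA, fell on both of its probe sets, and on the brighter one to 205, 295, 172 and 222 in BN DES rats, against 595, 562 and 497 in BN control rats (log2 -1.27 ± 0.17, adjusted p = 4.82e-06). The changes of Stat2 were -0.85 in ACI and -0.90 in COP. Irf9, the DNA-binding partner of STAT2, fell in BN (log2 -0.78 ± 0.20, adjusted p = 0.00378) and was not called in ACI (-0.15) or COP (-0.41).

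Irf7, the regulator that amplifies type I interferon production, moved in opposite directions in ACI and BN. Its signals were 767, 1082, 899 and 720.2 in ACI DES and 388, 382 and 348 in ACI control rats. In BN they were 178, 154, 258 and 356 in DES and 558, 562 and 641 in control rats. The groups were apart in both strains, with DES above control in ACI and below it in BN. Irf7 rose in ACI (log2 1.17 ± 0.20, adjusted p = 4.43e-05) and fell in BN (log2 -1.32 ± 0.20, adjusted p = 2.37e-05), and the COP change of 0.32 ± 0.20 was not called (adjusted p = 0.219). The fall in BN was -1.73 (adjusted p = 1.38e-07) with DES arrays 1 and 2 alone and -0.92 (adjusted p = 0.000323) with arrays 3 and 4 alone. Irf8, a factor of myeloid cells, rose in ACI (log2 0.75 ± 0.20, adjusted p = 0.00311) and COP (log2 0.76 ± 0.20, adjusted p = 0.00348), and its change in BN was -0.30 ± 0.20 (adjusted p = 0.258).

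The sensors of viral RNA and the enzymes that act on it fell or were not called, and none of the 7 rose in any strain. In ACI 3 fell, in COP 4 and in BN 5, which is 42.9%, 57.1% and 71.4% called, against 55.6%, 49.8% and 39.5% of all genes in either direction and 32.5%, 28.1% and 22.6% lower. Eif2ak2 encodes PKR, a kinase that stops translation when it binds double-stranded RNA, and it fell in ACI (log2 -0.54 ± 0.15, adjusted p = 0.00469), COP (-0.77) and BN (-0.71). Adar, which edits adenosine in double-stranded RNA, changed by -0.75, -0.70 and -0.69 in ACI, COP and BN on its brightest probe set, called each time. The BN call was lost with DES arrays 1 and 2 alone. On another of its 3 probe sets DES and control arrays overlapped in COP and BN, and on the remaining one they were apart in every strain. Ifih1, which encodes the sensor MDA5, was at 9.5, 19.3, 40.5 and 22.7 in ACI DES and 158, 109 and 126 in ACI control rats, and its DES means of 23.0 in ACI, 36.9 in COP and 56.8 in BN were all near the floor. Dhx58, a regulator of these sensors, fell in BN on its brightest probe set (log2 -0.79 ± 0.24, adjusted p = 0.0147), and another of its 3 probe sets fell in COP too (log2 -1.07 ± 0.29, adjusted p = 0.00419). Rig1, the entry that carries the gene ID of Ddx58 and stands for the sensor RIG-I, was at 210.1, 215, 196 and 181 in BN DES and 639.9, 654 and 582 in BN control rats, and its log2 changes of -0.84 in ACI, -0.64 in COP and -1.57 in BN were called.

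The oligoadenylate synthetases, which make a messenger that activates an RNA-cutting enzyme, did not rise in any strain. Oas1a had signals of 54.3, 47.7, 106 and 223 on the BN DES arrays and 158, 163 and 188 on the BN control arrays, so DES arrays 1 to 3 were below the controls and array 4 was above them. Its log2 changes of 0.73 ± 0.36 in ACI, 0.33 ± 0.36 in COP and -0.79 ± 0.36 in BN were not called. Oas1b was near the floor in every group except BN control rats. Oasl fell in COP (log2 -0.52 ± 0.21, adjusted p = 0.0473) and BN (log2 -0.94 ± 0.21, adjusted p = 0.00115) and changed by -0.45 in ACI (adjusted p = 0.0769).

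Mx2 and Mx1 encode dynamin-like GTPases that block the replication of RNA viruses, and they lie near each other at chr11:50375101-50399373 and chr11:50269056-50294699 (GRCr8). They are paralogs of similar sequence, so values of their probe sets are uncertain where a probe could bind both. Mx2 had 2 probe sets, and they disagreed. On the brighter one the signals were 1005, 1068, 534 and 479 in ACI DES and 1887, 2029 and 1479 in ACI control rats. COP rats had 988, 909.8, 497 and 874 with DES and 2434, 2413 and 1979 without. BN rats had 28.7, 15.2, 21.7 and 13.7 with DES and 44.3, 23.3 and 12.3 without. This probe set thus read near the floor on all 7 BN arrays, and DES arrays lay below control arrays in ACI and COP. It fell in ACI (log2 -1.28 ± 0.28, adjusted p = 0.000697) and COP (log2 -1.50 ± 0.28, adjusted p = 0.000178), and in BN, so close to the floor, the log2 value of -0.20 ± 0.28 was not called.

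On the dimmer Mx2 probe set the direction was the other way in ACI and COP. Signals were 316, 454, 227 and 269 in ACI DES and 68.8, 123 and 114 in ACI control rats, with no overlap. In BN they were 146, 138, 298 and 206 with DES and 386, 399 and 562 without, again with no overlap but with DES below control. This probe set rose in ACI (log2 1.49 ± 0.30, adjusted p = 0.000254) and COP (log2 0.97 ± 0.30, adjusted p = 0.0118) and fell in BN (log2 -1.17 ± 0.30, adjusted p = 0.00417). Its fall in BN was -1.54 (adjusted p = 0.00127) with DES arrays 1 and 2 alone and -0.80 (adjusted p = 0.0628) with arrays 3 and 4 alone, so the call was lost with arrays 3 and 4 alone.

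Mx1 had the largest rise of the 42 members in ACI and in COP. Its signals were 498, 588, 447 and 367 in ACI DES and 78.2, 86.0 and 144 in ACI control rats. In COP they were 415, 405, 332 and 353 with DES and 81.0, 104 and 124 without. The DES arrays were above all control arrays in both strains, a rise of 4.20-fold in ACI (log2 2.07 ± 0.31, adjusted p = 9.51e-06) and 3.33-fold in COP (log2 1.73 ± 0.31, adjusted p = 0.000107). In BN the signals were 76.7, 93.8, 178 and 327 with DES and 254, 282 and 372 without. DES array 4 lay among the BN controls. Mx1 fell in BN over all 4 arrays (log2 -0.97 ± 0.31, adjusted p = 0.0206), and the change was -1.64 (adjusted p = 3.16e-05) with arrays 1 and 2 alone and -0.29 (adjusted p = 0.411) with arrays 3 and 4 alone, so the fall in BN rests on arrays 1 and 2.

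**Figure D2:**
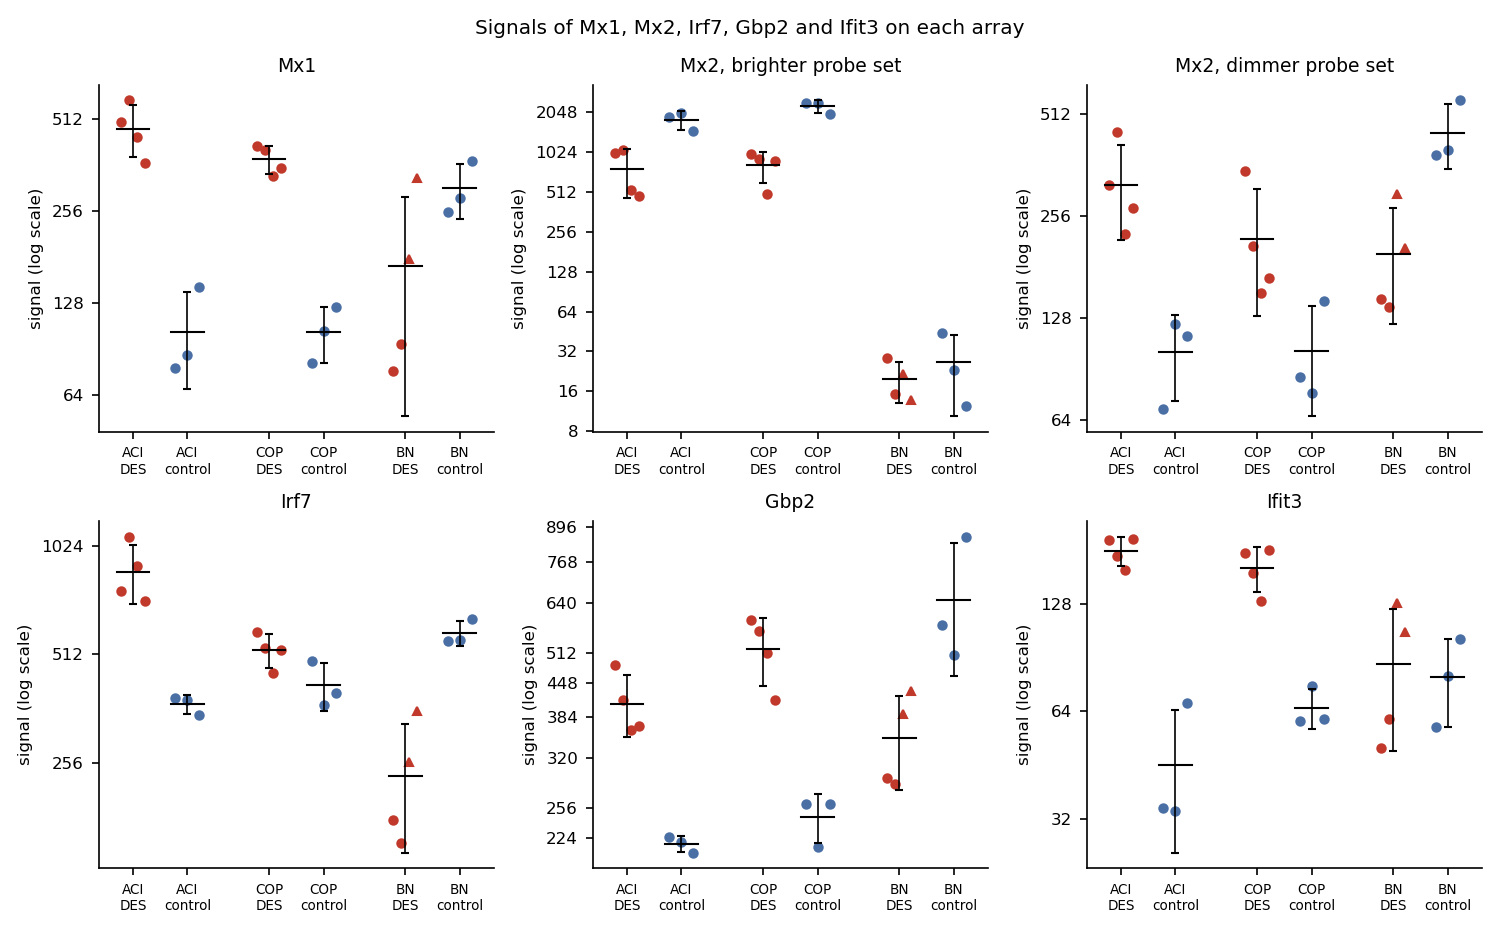
Signal (y axis, log scale) of Mx1, both Mx2 probe sets, Irf7, Gbp2 and Ifit3 on each array (points), by strain with DES left of control, with the mean and SD as lines and BN DES arrays 3 and 4 as triangles. In ACI the DES arrays of Mx1 lie between 367 and 588, above controls of 78.2 to 144, and in BN those of Irf7 lie between 154 and 356, below controls of 558 to 641.

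Of the 15 antiviral effectors, Mx1 and Mx2 included, 6 rose and 7 fell in ACI, 5 rose and 7 fell in COP, and 2 rose and 6 fell in BN, which is 86.7%, 80% and 53.3% called, against 55.6%, 49.8% and 39.5% of all genes. Ifit2 and Ifit3, which act against viral RNA and lie next to each other on chromosome 1, rose in ACI and COP. Ifit3 was at 194, 175, 160.1 and 195 in ACI DES and 34.2, 33.7 and 67.8 in ACI control rats, a log2 rise of 1.73 ± 0.27 (adjusted p = 1.43e-05), with 2 of the 3 control arrays under the floor of 67.0. It rose in COP as well (log2 1.12 ± 0.27, adjusted p = 0.00182). The control means of 45.2 in ACI and 65.6 in COP were under the floor, so the sizes of both rises are uncertain. In BN its signals of 50.5, 60.9, 129 and 107 with DES overlapped 57.8, 80.3 and 102 without. Both Ifit2 probe sets rose in ACI and COP, with log2 changes of 1.03 and 1.44 on the brighter one, and neither was called in BN. Ifit1, the third gene of the cluster, was not called in any strain. Isg20, an RNA exonuclease, rose in ACI (log2 0.86 ± 0.18, adjusted p = 0.000406) and COP (log2 0.56 ± 0.18, adjusted p = 0.0167).

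Effectors that fell in all strains included Ifi44, Sp110, Rtp4 and Rsad2. Ifi44, a protein linked to slower cell growth, was at 394, 299, 272 and 309 in ACI DES and 1338, 1118 and 1833 in ACI control rats, a fall of 4.27-fold (log2 -2.09 ± 0.20, adjusted p = 1.38e-08). It fell in COP (log2 -1.80) and BN (log2 -1.24) as well, and no DES array overlapped a control array. Sp110, a nuclear body protein, was at 259, 272, 165 and 178 with DES and 848, 806 and 837 without in ACI (log2 -1.88 ± 0.16, adjusted p = 2.97e-09), and it fell in COP (log2 -1.31) and BN (log2 -1.40). Another Sp110 probe set fell with it in each strain, and the remaining one was called in none. Rtp4, a chaperone of membrane receptors, changed by -0.95 in ACI, -1.10 in COP and -1.21 in BN.

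Rsad2 encodes viperin, an enzyme that makes a chain-terminating nucleotide, and it had the largest fall of the members in BN. Its BN signals were 172, 236, 334 and 584 with DES and 1354, 924 and 1465 without. All 4 DES arrays were below the 3 control arrays, and arrays 3 and 4 were nearer to them. The fall was 3.93-fold (log2 -1.97 ± 0.26, adjusted p = 3.72e-06), with log2 -2.51 for DES arrays 1 and 2 alone and -1.44 for arrays 3 and 4 alone. In ACI and COP Rsad2 fell with log2 changes of -0.66 and -0.64 (adjusted p = 0.0388 and 0.049).

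The Ifitm genes, whose products hinder the entry of viruses at membranes, lie within 1 cluster on chromosome 1 and did not move together. Ifitm1 was at 626, 927, 705 and 697 in ACI DES and 1894, 1853 and 1851 in ACI control rats (log2 -1.33 ± 0.23, adjusted p = 6.11e-05), and it fell in COP (log2 -1.51 ± 0.23, adjusted p = 1.92e-05). In BN its signals of 226, 303, 576 and 586 with DES overlapped 405, 475 and 641 without. Ifitm3 was at 1572, 1319.6, 1104 and 980.5 with DES and 2956, 2447 and 2519 without in ACI (log2 -1.09 ± 0.13, adjusted p = 3.87e-07), and in COP it fell too (log2 -0.63 ± 0.13, adjusted p = 0.000469). In BN its DES signals of 2834, 2809, 2694 and 2703 were all below controls of 3271, 3193 and 3743, but the change was not called. Groups without overlap were found for 42.2% of all genes in BN. Ifitm2 went the other way and rose in ACI (log2 0.74 ± 0.14, adjusted p = 0.00015) and BN (log2 0.48 ± 0.14, adjusted p = 0.0124), with a change of 0.33 ± 0.14 in COP (adjusted p = 0.066). Ifi27, a small membrane protein with the highest mean signal of the members, rose in ACI (log2 0.74 ± 0.22, adjusted p = 0.00824), COP (log2 0.75 ± 0.22, adjusted p = 0.00884) and BN (log2 1.21 ± 0.22, adjusted p = 0.00021). Its BN signals were 6034, 5906, 14099 and 12284 with DES and 3476, 3762 and 4266 without, and the rise was 0.64 (adjusted p = 0.00142) with DES arrays 1 and 2 alone and 1.78 (adjusted p = 6.15e-09) with arrays 3 and 4 alone. Bst2, which encodes tetherin, fell in BN (log2 -0.65 ± 0.19, adjusted p = 0.0101) and was not called in ACI or COP.

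**Figure D3:**
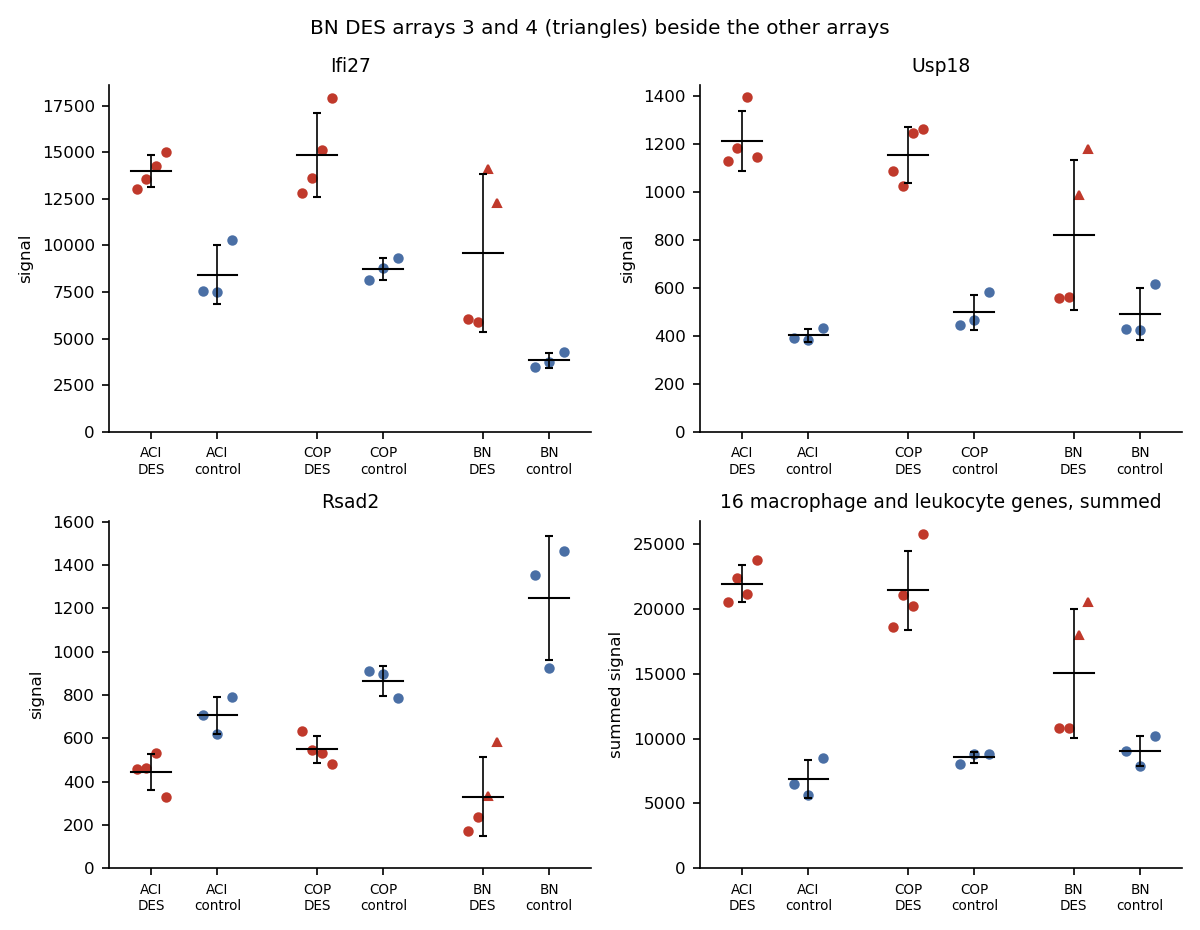
Signal (y axis, linear from 0) of Ifi27, Usp18 and Rsad2 and the summed signal of 16 macrophage and leukocyte genes on each array (points), DES left of control in each strain, with the mean and SD as lines. The triangles, BN DES arrays 3 and 4, lie at 986 and 1178 for Usp18, above 558 and 560.3 on arrays 1 and 2.

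The interferon-inducible GTPases Igtp and Irgm, known in the mouse for action against intracellular pathogens, fell in all strains, whereas Gbp2, a guanylate-binding protein, differed between strains. Igtp was at 195, 175, 152 and 181 in ACI DES and 725, 666 and 704 in ACI control rats (log2 -1.90 ± 0.21, adjusted p = 1.41e-07). It fell on both probe sets in COP and BN as well, with log2 changes of -1.91 and -1.54 on the brighter one. Irgm changed by -1.0 in ACI, -0.74 in COP and -1.40 in BN, called each time. Gbp2 was at 485, 414, 362 and 369 in ACI DES and 225, 220.3 and 210.0 in ACI control rats (log2 0.84 ± 0.18, adjusted p = 0.000487). In COP it was at 591, 564, 511 and 414 with DES and 261, 215 and 261 without (log2 1.03 ± 0.18, adjusted p = 7.77e-05). DES arrays were above control arrays in both. In BN they were below them, at 292, 285, 389.5 and 432 with DES and 578, 506 and 858 without (log2 -0.85 ± 0.18, adjusted p = 0.000913). The fall was -1.09 (adjusted p = 0.000255) with DES arrays 1 and 2 alone and -0.60 (adjusted p = 0.0187) with arrays 3 and 4 alone.

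In the ISG15 system, the modifier itself did not pass the test while its removing enzyme rose. Isg15 was at 238, 238, 335 and 766 in BN DES and 490.2, 603 and 680.5 in BN control rats. In COP its DES signals of 642.7, 624.6, 598.3 and 679.4 were all above controls of 398.1, 406.5 and 455.6. Groups without overlap were found for 55.2% of all genes in COP. The log2 changes of Isg15, 0.24 ± 0.29 in ACI, 0.58 ± 0.29 in COP and -0.72 ± 0.29 in BN, were not called. Their SE rests on the spread in all 6 groups. Usp18, which strips ISG15 from proteins and also damps signalling at the type I receptor, was at 1129, 1184, 1397 and 1144 in ACI DES and 389.9, 383 and 434 in ACI control rats (log2 1.55 ± 0.20, adjusted p = 1.44e-06). It rose in COP (log2 1.19 ± 0.20, adjusted p = 5.82e-05) and BN (log2 0.67 ± 0.20, adjusted p = 0.0144). In BN the change was 0.21 (adjusted p = 0.38) with DES arrays 1 and 2 alone and 1.13 (adjusted p = 1.3e-05) with arrays 3 and 4 alone, so the BN call rests on arrays 3 and 4. Trim25, a ubiquitin ligase for RIG-I, fell in all strains, with log2 changes of -1.08 in ACI, -0.99 in COP and -0.91 in BN. Ube2l6, which carries ISG15 to its targets, and Herc6, its ligase in the mouse, were not called.

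Parp9 rose in all strains and Parp14 fell in ACI and BN. Both belong to a family of ADP-ribose enzymes, and their genes lie close together on chromosome 11. Parp9 was at 2041, 1848, 1827 and 2013 in ACI DES and 1002, 1067 and 967 in ACI control rats (log2 0.92 ± 0.12, adjusted p = 8.43e-07). COP rats had 2359.8, 2400.3, 2536 and 2758 with DES and 753, 776 and 813 without (log2 1.66 ± 0.12, adjusted p = 1.58e-10), and BN rats had 2326, 2282, 3094 and 2818 with DES and 1138, 970.4 and 1345 without (log2 1.18 ± 0.12, adjusted p = 6.93e-08). No DES array overlapped a control array. Parp14 changed by -0.42 in ACI, -0.17 in COP and -0.50 in BN on its brighter probe set, the COP value not called. The BN call was lost with DES arrays 3 and 4 alone. On its dimmer probe set DES and control arrays overlapped in ACI and COP and were apart in BN.

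Psme1 and Psme2 encode the subunits of PA28, the activator that opens the proteasome for peptides used in antigen presentation, and both fell in every strain. They are neighbours on chromosome 15, at chr15:33038962-33041849 and chr15:33048452-33053055 (GRCr8), with Irf9 beside them. Psme2 was at 1959, 1922, 2064 and 2309.9 in ACI DES and 6386, 6711 and 6956 in ACI control rats (log2 -1.69 ± 0.12, adjusted p = 1.11e-10). In COP it was at 2389, 2705, 2746 and 3162 with DES and 6842, 7637 and 6537 without (log2 -1.35 ± 0.12, adjusted p = 6.62e-09). BN rats had 3072, 3599.6, 4108 and 4610.5 with DES and 6579, 7146 and 7382 without (log2 -0.88 ± 0.12, adjusted p = 5.65e-06). The control levels of the 3 strains overlapped, and the mean with DES was lowest in ACI and highest in BN. Psme1 was at 5284, 5549, 5117 and 5153 in ACI DES and 9924, 11498 and 11240.2 in ACI control rats (log2 -1.04 ± 0.10, adjusted p = 8.25e-09), and it fell in COP (log2 -0.98 ± 0.10, adjusted p = 3.5e-08) and BN (log2 -0.43 ± 0.10, adjusted p = 0.00159). A dim second Psme1 probe set was not called.

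**Figure D4:**
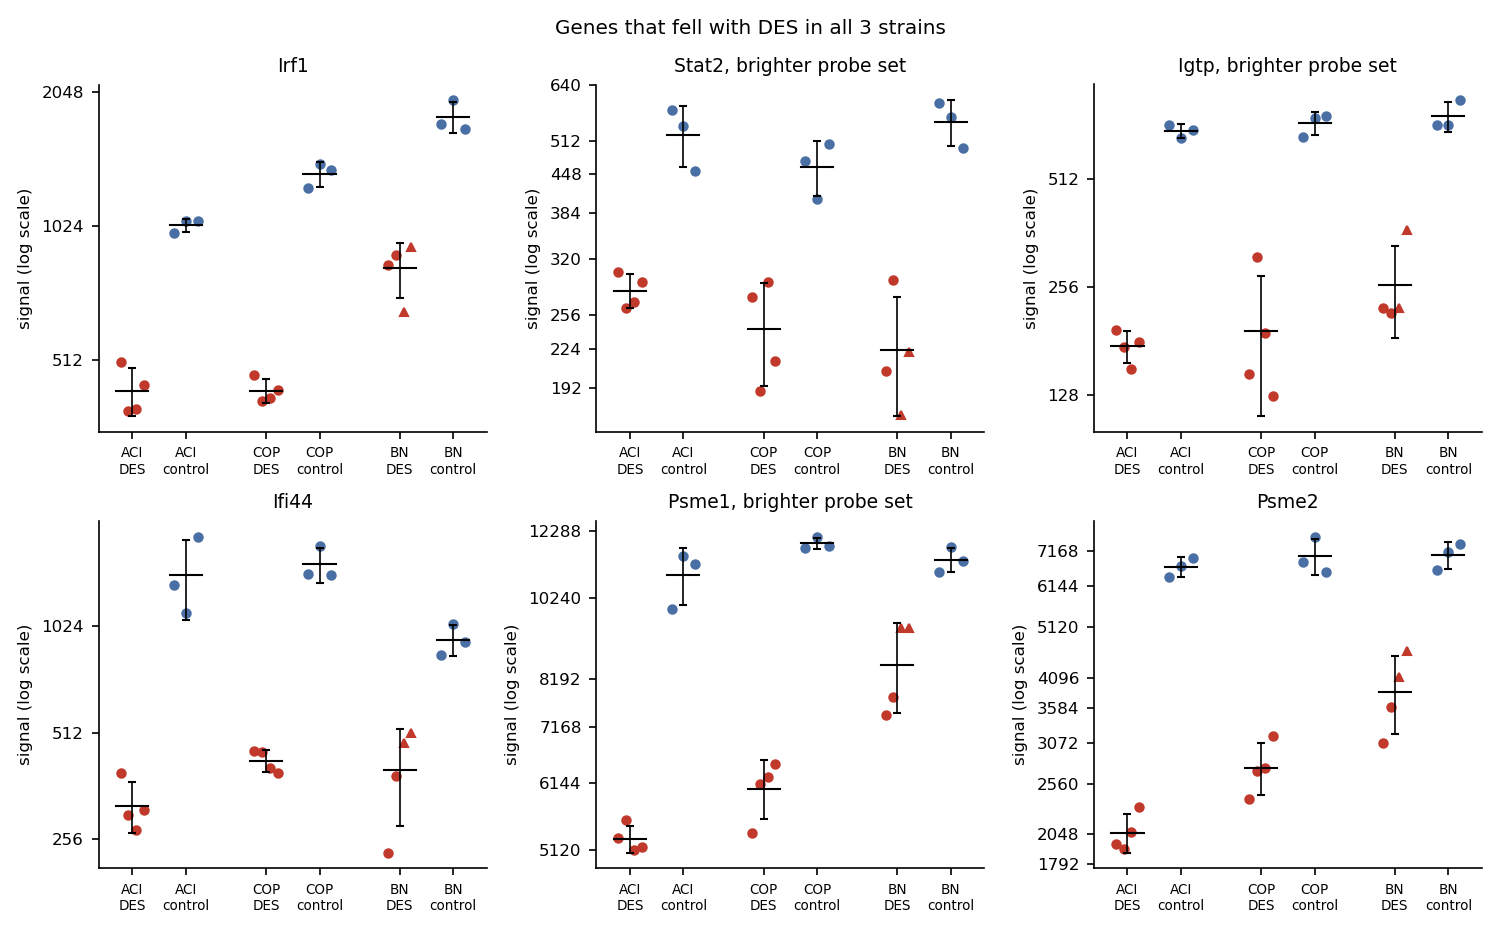
Signal (y axis, log scale) of Irf1, Stat2, Igtp, Ifi44, Psme1 and Psme2 on each array (points), by strain with DES left of control, with the mean and SD as lines and BN DES arrays 3 and 4 as triangles. No DES array overlaps a control array of its strain, and the Psme2 signal lies between 1922 and 2310 in ACI DES rats, against 6386 to 6956 in ACI control rats.

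Lgals3bp, a secreted glycoprotein that binds galectin-3, was called with DES in BN alone. Its signals were 325, 387, 358 and 416 in BN DES and 715, 635 and 700.2 in BN control rats (log2 -0.86 ± 0.13, adjusted p = 2.17e-05), with the groups apart. In ACI the change was 0.23 ± 0.13 and in COP -0.12 ± 0.13.

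Other genes of the pathway were counted from 3 lists. Of 15 tested genes for interferons and signalling, 4 rose and 5 fell in ACI, 3 rose and 4 fell in COP, and 1 rose and 8 fell in BN, which is 60%, 46.7% and 60% called. The shares of all genes were 55.6%, 49.8% and 39.5%, so those in ACI and COP were near the background. Ifnar2, the signalling chain of the type I receptor, rose in ACI (log2 1.42, adjusted p = 5.12e-09), COP (1.24) and BN (0.78), and Ptpn11, a phosphatase in cytokine signalling, fell in all 3. The interferon genes Ifnb1 and Ifng were not tested because their signals were under the filter, with group means of at most 9.53 and 14.5. Of 12 genes for sensing, 3 rose and 2 fell in ACI, 3 rose and 1 fell in COP, and 1 rose and 1 fell in BN, and the shares called (41.7%, 33.3% and 16.7%) were below those of all genes. Ticam1, an adaptor of toll-like receptors, rose in ACI (log2 1.67) and COP (1.26), and Tlr7, a receptor for single-stranded RNA, rose in ACI, COP and BN (1.66, 1.45 and 0.61). Of 20 further induced genes, 7 rose and 9 fell in ACI, 6 rose and 9 fell in COP, and 1 rose and 8 fell in BN (80%, 75.0% and 45.0% called). Psmb9, a catalytic subunit of the immunoproteasome, fell in ACI, COP and BN (log2 -2.27, -2.20 and -1.70), as did Ifi44l (-1.99, -1.80 and -1.24) and Tnfsf10, the death ligand TRAIL (-1.90, -1.92 and -1.55). Plscr1, a membrane protein, rose in all 3 (0.59, 1.06 and 1.43).

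Among control rats, strains differed in a few members by large amounts. Between ACI and BN control rats 3 members were higher in ACI and 7 lower (23.8%, against 7.48% of all genes, 3.86% higher and 3.63% lower). Between COP and BN control rats 3 were higher in COP and 5 lower (19.0%, against 6.07% of all genes, 2.79% higher and 3.28% lower). The brighter Mx2 probe set stood at log2 5.47 ± 0.30 for ACI over BN (adjusted p = 9.9e-11) and 5.81 ± 0.30 for COP over BN (adjusted p = 2.9e-11), sizes that are uncertain because BN was near the floor. On the dimmer one the difference had the opposite sign, -1.99 ± 0.32 for ACI over BN and -2.0 ± 0.32 for COP over BN, both called. Ifitm1 was higher in ACI (log2 1.87 ± 0.25, adjusted p = 3.43e-05) and COP (log2 2.23 ± 0.25, adjusted p = 3.33e-06) than in BN, and so was Ifi27 (log2 1.12 and 1.19). Mx1, Gbp2 and Ifitm2 were lower in ACI than in BN (log2 -1.45, -1.47 and -0.75) and lower in COP than in BN (log2 -1.42, -1.31 and -0.78). Irf1, Irf8, Bst2 and Lgals3bp were also lower in ACI than in BN, with log2 differences of -0.79, -0.73, -0.74 and -0.81. Between ACI and COP control rats, Oas1b was higher in ACI and Lgals3bp lower (4.76%, against 1.18% of all genes, 0.647% higher and 0.536% lower), with Oas1b near the floor in both. Of the 16 macrophage and leukocyte genes, 0 were higher and 6 lower in ACI than in BN, and 0 were higher and 6 lower in COP than in BN.

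Among DES rats, Mx1 differed between ACI and BN with the opposite sign to that in control rats. Between ACI and BN DES rats 9 members were higher in ACI and 8 lower (40.5%, against 36.2% of all genes, 16.4% higher and 19.8% lower), with 11 and 7 for BN DES arrays 1 and 2 alone (31.6% of all genes called) and 5 and 12 for arrays 3 and 4 alone (43.4%). The share called over all arrays was near that of all genes. With median centring 13 members were higher in ACI and 6 lower, and 15 of the 17 calls were kept. Irf7 was higher in ACI (log2 1.86 ± 0.19, adjusted p = 1e-07), as were Mx1 (log2 1.59 ± 0.29, adjusted p = 0.000208), Ifit3 (log2 1.01 ± 0.25, adjusted p = 0.0035), Ifitm1, Ifit1, Ifi27, Usp18 and Isg20. The brighter Mx2 probe set was also called higher in ACI, by an amount that is uncertain because its mean of 19.8 in BN DES rats was near the floor. Ifitm3, Irf1, Psme2 and Psme1 were lower in ACI than in BN, at log2 -1.16, -0.89, -0.88 and -0.68. BN DES arrays 1 and 2 alone lost the calls of Ifit1, Ifitm2, Isg20, Parp9 and Ube2l6, and arrays 3 and 4 alone lost those of Ifi27 (0.09, adjusted p = 0.647), Ifit3 (0.56, adjusted p = 0.103), Ifitm1, Isg20 and Usp18 (0.16, adjusted p = 0.429). Between COP and BN DES rats 15 members were higher in COP and 5 lower (47.6%, against 26.0% of all genes, 13.0% higher and 12.9% lower), with 15 and 4 for BN DES arrays 1 and 2 alone (23.3% of all genes called) but 4 and 6 for arrays 3 and 4 alone (34.9%). Arrays 1 and 2 alone kept 18 of the 20 calls, and arrays 3 and 4 alone kept 9. Mx1 was higher in COP over all arrays (log2 1.28 ± 0.29, adjusted p = 0.00264), a call lost with BN DES arrays 3 and 4 alone (0.60, adjusted p = 0.0778), as were those of Bst2, Dhx58, Gbp2, Ifi27, Ifit3, Irf8, Isg15, Oas1a, Rsad2 and Usp18. Between ACI and COP DES rats 2 were higher in ACI and 4 lower (14.3%, against 5.64% of all genes, 1.77% higher and 3.87% lower). With median centring the split turned to 4 higher and 1 lower, with 3 of the 6 calls kept and those of Lgals3bp, Psme2 and Parp9 lost. Over the values as deposited, Ifit1 and Irf7 were the higher ones (log2 1.09 and 0.69), with the Ifit1 mean of COP DES rats near the floor, and Ifitm3, Lgals3bp, Psme2 and Parp9 were the lower ones (-0.66, -0.51, -0.41 and -0.38). Of the 16 macrophage and leukocyte genes, 11 were higher and 0 lower in ACI than in BN DES rats.

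The difference in the response to DES between strains was tested directly as an interaction. The change with DES was more positive in ACI than in BN for 9 members and more negative for 5 (33.3%, against 17.8% of all genes, 8.28% more positive and 9.51% more negative), and the median difference was 0.25, against -0.058 for all genes. With median centring 11 were more positive and 3 more negative, with 12 of the 14 calls kept. The largest was Mx1, at log2 3.04 ± 0.44 with a 95% interval of 2.12 to 3.96 (adjusted p = 7.23e-05). The next were Irf7 (log2 2.49 ± 0.28, adjusted p = 4.16e-06), Gbp2 (log2 1.69 ± 0.25, adjusted p = 0.000106), Ifit3 (log2 1.68 ± 0.38, adjusted p = 0.00457), Oas1a, Rsad2, Lgals3bp (log2 1.09 ± 0.18, adjusted p = 0.000321), Irf8 and Usp18. Psme2 (log2 -0.81 ± 0.17, adjusted p = 0.00235), Psme1 (log2 -0.62 ± 0.14, adjusted p = 0.00367), Ifitm3 (log2 -0.80 ± 0.19, adjusted p = 0.00539), Ifitm1 and Ifi44 responded more negatively in ACI. The dimmer Mx2 probe set differed by 2.65 ± 0.42 (adjusted p = 0.000195), and the brighter one, near the floor in both BN groups, was not called. The size of the Ifit3 difference is uncertain because its ACI control mean was under the floor.

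Between COP and BN, 6 members responded more positively in COP and 2 more negatively (19.0%, against 6.92% of all genes, 3.99% more positive and 2.93% more negative), and with median centring 6 and 1, without Ifitm1. Gbp2 (log2 1.87 ± 0.25, adjusted p = 7.76e-05), Mx1 (log2 2.70 ± 0.44, adjusted p = 0.000631), Irf7 (log2 1.64 ± 0.28, adjusted p = 0.00104), Lgals3bp (log2 0.74 ± 0.18, adjusted p = 0.0184), Irf8 (log2 1.06 ± 0.28, adjusted p = 0.0278) and Rsad2 (log2 1.33 ± 0.37, adjusted p = 0.0356) were the more positive ones. Psme1 and Ifitm1 were the more negative ones (log2 -0.55 and -1.17). Both comparisons share the BN arrays. Between ACI and COP only Parp9 was called (log2 -0.74 ± 0.16, adjusted p = 0.0406, 2.38%, against 0.647% of all genes, 0.204% more positive and 0.443% more negative), a call lost with median centring, with no filter and with no variance trend. The difference for Mx1 was 0.34 ± 0.44 with an interval of -0.58 to 1.25.

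The split of the BN DES arrays changed these counts. Between ACI and BN, 12 members responded more positively and 3 more negatively with BN DES arrays 1 and 2 alone (17.0% of all genes called), and 7 and 7 with arrays 3 and 4 alone (29.4%). Between COP and BN the counts were 12 and 0 with arrays 1 and 2 alone (6.72%) and 5 and 5 with arrays 3 and 4 alone (20.2%). Of the calls between ACI and BN, arrays 1 and 2 alone lost Ifitm1 and Ifi44, and arrays 3 and 4 alone lost Oas1a, Rsad2 and Usp18. Of those between COP and BN, arrays 1 and 2 alone lost Ifitm1 and Psme1, and arrays 3 and 4 alone lost Rsad2. Mx1, Irf7 and Gbp2 kept their direction and call. Between ACI and BN, Mx1 differed by 3.71 with BN DES arrays 1 and 2 alone and by 2.36 with arrays 3 and 4 alone, Irf7 by 2.90 and 2.09, and Gbp2 by 1.93 and 1.45, all called. Against COP, Mx1 differed by 3.38 and 2.02, Irf7 by 2.05 and 1.23, and Gbp2 by 2.12 and 1.63, again called each time. Rsad2 against COP was 1.87 (adjusted p = 0.000145) and 0.79 (adjusted p = 0.0651), so its call was lost with arrays 3 and 4 alone. Over all arrays, the macrophage and leukocyte genes responded more positively in ACI than in BN for 12 of 16 (8.28% of all genes). In COP they did so against BN for 11 of 16 (3.99% of all genes), with none more negative in either comparison. Endothelial genes responded more negatively in ACI than in BN for 4 of 6 (9.51% of all genes) and in COP than in BN for 1 of 6 (2.93%). The part of these markers in the differences of the members was not tested.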

How the data were processed

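RNA from the anterior pituitary gland of male rats was hybridised to 21 Affymetrix Rat Genome 230 2.0 arrays, each read here as the gland of 1 rat. The deposited values are linear intensities per probe set, which the authors had scaled so that the 2% trimmed mean of each array lay between 500.1 and 500.2; the software and background correction are not given in the sources used here. After 57 control probe sets were left out, 21858 of 31042 passed the filter (a signal over the 40th percentile on 3 or more arrays). Group means of log2(signal + 16) were fitted with limma 3.58.1 (R 4.3.3) with a variance trend over all 21 arrays. Fold changes are on that log2 scale, which understates changes of dim genes, and p-values were adjusted by Benjamini-Hochberg over all probe sets of a comparison, with 0.05 as the threshold. Each gene was represented by its probe set of highest mean signal, with 11746 genes tested. Symbols came from the platform annotation, in which 20826 probe sets had 1 symbol, 436 several and 9780 none listed. Sequences and coordinates are from RefSeq, GRCr8.

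The members and lists were chosen with earlier results of these data known. Any member could be named, and statistics were given in full for Mx2 and for up to 8 members with the smallest adjusted p in each comparison, and in part where a role group was described. Replicate numbers in the labels are not said to mark a litter or day, and deviations of same-numbered arrays correlated at 0.005 to 0.281. All pairs were above 0.1 for DES against control in BN (0.138, 0.196 and 0.238), and the block changed no call of a member there except to add 2. Alternatives changed the filter, the offset, the scaling, the variance trend, the arrays fitted, the block and the probe set rule, and left out each array in turn; keeping BN DES arrays 1 and 2 or 3 and 4 was chosen after seeing the data. The fit was tested on simulated data.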

Additional observations from a re-analysis of the deposited data

Results flagged for a closer look

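The response to DES differed between ACI and BN for 14 members when the interaction itself was tested with limma (33.3%, against 17.8% of all genes). The differences, ACI minus BN on the log2 scale, were 3.04 for Mx1, 2.49 for Irf7, 1.69 for Gbp2, 1.68 for Ifit3, 1.53 for Oas1a, 1.31 for Rsad2, 1.09 for Lgals3bp, 1.05 for Irf8 and 0.88 for Usp18. They were -1.0 for Ifitm1, -0.85 for Ifi44, -0.81 for Psme2, -0.80 for Ifitm3 and -0.62 for Psme1. COP and BN differed for 8 members (19.0%, against 6.92% of all genes), COP minus BN, at 2.70 for Mx1, 1.87 for Gbp2, 1.64 for Irf7, 1.33 for Rsad2, 1.06 for Irf8, 0.74 for Lgals3bp, -0.55 for Psme1 and -1.17 for Ifitm1. ACI and COP differed for 1 member (2.38%, against 0.647% of all genes), Parp9, at -0.74. These comparisons share arrays. Oas1a in BN DES rats is spread over 54.3, 47.7, 106 and 223.

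Igtp had 1 array far from the others in BN DES rats, with signals of 225, 217, 224 and 371. The gap of the highest array took 0.95 of the range of the group. Of 126 groups examined this way 1 was marked, and chance marks about 1 in 20.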

How the results depend on the processing

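Of 2176 values of named members under alternatives, 2033 stayed on their side of the threshold, 127 lost the call and 16 gained it. Sign changes were counted only for values called in either fit, and there were 0. Among all members, 1 value called over all arrays changed sign, for COP against BN in DES-treated rats with replicate numbers 3 and 4 only. Of 271 counts of called members, 227 stayed within 1.5 times. With replicate numbers 1 and 2 only, the count was 16 for ACI against BN, 6 for ACI against COP and 13 for COP against BN in control rats, and 14 for the COP minus BN response, when 15.2%, 7.17%, 10.6% and 8.73% of all genes were called, against 7.48%, 1.18%, 6.07% and 6.92% over all arrays. With numbers 3 and 4 only, which leaves 1 control array per strain whose spread is assumed to be that of the other groups, these were 5, 0, 4 and 2 (2.65%, 0.23%, 1.67% and 2.97% of all genes), and the count was 1 for ACI against COP (2.69%) and 10 for COP against BN (24.1%) in DES-treated rats and 0 for the ACI minus COP response (0.145%). BN DES arrays 3 and 4 alone gave 10 for COP against BN in DES-treated rats (34.9% of all genes, against 26.0% over all arrays). Fitting only the groups compared gave 1 for ACI against COP in control rats (0.741% of all genes). It gave 11 for COP against BN in DES-treated rats (15.4%) and 5 for the COP minus BN response (4.75%). ACI against COP in control rats was 1 with 64 added (1.22%) or the filter at the 60th percentile (1.61%). The ACI minus COP response was 0 with median centring (0.528%), no filter (0.415%) or no variance trend (0.528%), against 0.647% in the main fit. Causes were not tested.

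Without 1 array the counts were 27 to 29 for DES in ACI, 24 to 27 in COP and 23 to 27 in BN. In control rats they were 7 to 12 (ACI against BN), 1 to 2 (ACI against COP) and 6 to 9 (COP against BN). In DES-treated rats they were 15 to 20, 2 to 6 and 10 to 21, with 2 for ACI against COP without ACI DES replicate 3, 3 without COP DES replicate 3, and 10 and 11 for COP against BN without BN DES replicates 1 and 2. The responses gave 10 to 15 (ACI minus BN), 0 to 1 (ACI minus COP) and 3 to 10 (COP minus BN), the last with 3 without COP control replicate 2, 4 without BN control replicate 1 and 5 without COP control replicate 1 or COP DES replicate 2.

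With the replicate block the counts were 29, 26 and 29 for DES in ACI, COP and BN (58.3%, 52.4% and 41.7% of all genes called). They were 11, 2 and 10 for the control comparisons in the order above (10.2%, 1.7% and 8.28%). The DES-treated ones gave 18, 8 and 21 (41.3%, 7.53% and 31.0%), and the responses gave 16, 1 and 12 (22.8%, 1.37% and 10.5%). Among the named values the block changed only the brighter Mx2 probe set, whose response differences became called. Groups of 3 and 4 arrays, and signals near the floor in Ifih1, Oas1b, Ifit1, Ifit3 and Mx2, limit what can be measured.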
